A study of Mus musculus with 40 samples.

Results

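The genes described here are 10 transcripts of the mural cells of brain vessels, which are the pericytes of capillaries and the smooth muscle cells of arterioles: *Abcc9*, *Kcnj8*, *Pdgfrb*, *Rgs5*, *Vtn*, *Notch3*, *Acta2*, *Tagln*, *Myl9* and *Tbx2*. They were taken by symbol from 2 count tables of 47643 mouse genes, and all 10 had an entry in both tables. *Abcc9* and *Tbx2* were chosen by their lower counts in post-KD hippocampus, so their hippocampal change is given as a description with no test. The other 8 genes were chosen as genes of mural cells, to see how far the lower level of those 2 was shared. *Myl9* was in addition one of the genes that the study itself listed from the hippocampal libraries, so its hippocampal value is not independent evidence either.

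The study colonized germ-free, wild-type Swiss Webster mice, an outbred stock, by oral gavage with stool that 1 of 10 human donors gave before a clinical ketogenic diet (pre-KD) or while on it (post-KD). All recipients ate the same control diet, so every group was colonized with human stool and no group was fed the ketogenic diet. The methods describe female mice of 6 to 8 weeks, killed on day 4 after colonization, with each RNA-seq library pooled from 6 mice of 1 cohort. There were 10 pre-KD and 10 post-KD libraries of hippocampus and as many of frontal cortex from the same cohorts, and the replicate number is the number of the stool donor, so that the spread between mice of a pool was not measured.

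Mural cells wrap the endothelial tube, and their tone sets the width of the vessel. In pericytes and smooth muscle cells the sulfonylurea receptor SUR2 (*Abcc9*) and the inward rectifier Kir6.1 (*Kcnj8*) form an ATP-sensitive potassium channel whose opening hyperpolarizes the cell. Pericytes are recruited by endothelial PDGF-B through its receptor (*Pdgfrb*), NOTCH3 (*Notch3*) receives Jagged and Delta signals from neighbouring cells, and the contractile proteins of arteriolar muscle are made under serum response factor, which binds the CArG box.

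*Abcc9* lies on the minus strand of chromosome 6 at chr6:142587862-142702315 (GRCm38), and *Kcnj8* follows it on the same strand at chr6:142564837-142571614, 16.2 kb away. RefSeq promoters of GRCm38.p6 were matched for 7 of the 10. The 250 bases before the start are shown for *Myl9*, the only one of the 8 genes with an unadjusted p under 0.05 in the hippocampus, for the contractile gene *Acta2*, and for the neighbours *Abcc9* and *Kcnj8*. The windows are chr2:156775214-156775463 (plus strand), chr19:34255374-34255623 (minus), chr6:142702275-142702524 (minus) and chr6:142571615-142571864 (minus). Capitals mark matches to the CArG box in its strict form (CC and GG around 6 bases that are each A or T), to TGGGAA (the core bound by the Notch effector CSL), to GGGCGG (the GC box) and to TATAAA, each searched on both strands.
Myl9: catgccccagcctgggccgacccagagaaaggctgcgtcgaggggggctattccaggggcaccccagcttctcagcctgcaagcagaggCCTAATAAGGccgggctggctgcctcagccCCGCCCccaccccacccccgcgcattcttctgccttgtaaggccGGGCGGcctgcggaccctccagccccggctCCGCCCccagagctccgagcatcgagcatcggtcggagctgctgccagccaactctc
Acta2: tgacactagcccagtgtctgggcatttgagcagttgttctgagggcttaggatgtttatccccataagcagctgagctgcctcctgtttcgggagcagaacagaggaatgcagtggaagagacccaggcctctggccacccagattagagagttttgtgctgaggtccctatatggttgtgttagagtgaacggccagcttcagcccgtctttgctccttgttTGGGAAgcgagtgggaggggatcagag
Abcc9: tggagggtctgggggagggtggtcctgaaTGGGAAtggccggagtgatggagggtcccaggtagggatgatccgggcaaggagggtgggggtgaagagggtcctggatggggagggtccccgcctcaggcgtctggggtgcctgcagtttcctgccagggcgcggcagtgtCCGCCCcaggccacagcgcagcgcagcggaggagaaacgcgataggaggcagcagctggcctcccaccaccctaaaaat
Kcnj8: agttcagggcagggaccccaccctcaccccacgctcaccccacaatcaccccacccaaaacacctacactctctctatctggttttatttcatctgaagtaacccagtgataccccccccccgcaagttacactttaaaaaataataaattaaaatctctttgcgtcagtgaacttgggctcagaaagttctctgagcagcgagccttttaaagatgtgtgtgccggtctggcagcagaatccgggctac
This strict CArG form was found in *Myl9* alone of the 7 matched promoters, as CCTAATAAGG, and 1.63% of 32851 promoters of 300 bases hold one. Forms with a G or C in the core, which serum response factor also binds and which the *Acta2* promoter is known for, were not searched. The GC box was present in 35.7% of these promoters, the CSL core in 25.6% and TATAAA in 13.6%. These matches are descriptions of letters in the window.

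Reads counted on genes numbered 1140756 to 1947416 in the hippocampal libraries and 1188447 to 2095352 in the frontal cortical ones. Hippocampal and cortical marker genes followed the labels, with 4 of 5 hippocampal markers higher in hippocampus and 3 of 6 cortical markers lower there (adjusted p under 0.05, edgeR). Although the methods name female mice, 4 Y-linked genes summed to 77.9 to 179 CPM in the 8 libraries of replicates 9 and 10, in both regions and conditions, against 0 to 15.9 CPM in the other 32. The groups were balanced for these replicates, and values without them are given where a call was lost or a count rests on them. CPM are counts scaled to a library of 1000000 with TMM factors, and an SD is over libraries.

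The other members lie apart, *Pdgfrb* on chromosome 18, *Rgs5* on 1, *Vtn* and *Tbx2* on 11, *Notch3* on 17, *Acta2* on 19, *Tagln* on 9 and *Myl9* on 2. As a share of all member reads, *Rgs5*, a regulator of G protein signalling that marks pericytes, held 43.3% in hippocampus and 50.5% in frontal cortex. *Vtn*, the secreted matrix protein vitronectin, held 23.4% and 22.1%. These were the only members with reads in all 40 libraries. *Kcnj8*, by contrast, had 21 reads in the 20 hippocampal libraries and 53 in the 20 cortical ones. Per kilobase of exon in the GENCODE annotation, the hippocampal order was *Vtn* (20.9 CPM per kb ± 9.93, SD, n = 20), *Rgs5* (17.5 ± 6.15), *Myl9* (12.1 ± 13.5), *Acta2* (9.40 ± 6.87), *Tagln* (2.11 ± 2.19), *Pdgfrb* (1.45 ± 2.42), *Abcc9* (0.775 ± 1.31), *Tbx2* (0.664 ± 1.45), *Notch3* (0.611 ± 0.750) and *Kcnj8* (0.250 ± 0.467). Apart from *Acta2* and *Tagln*, neighbours in this order differed by less than the larger of their SDs. In frontal cortex *Rgs5* (20.3 ± 5.09) stood before *Vtn* (19.8 ± 6.05), and *Myl9* (10.5 ± 9.71) and *Acta2* (5.60 ± 4.16) again came next. The methods name a whole-transcript kit, but the study's list of reagents also holds a 3′ tag kit, and with 3′ tags a level per kb would not compare genes.

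**Figure D1:**
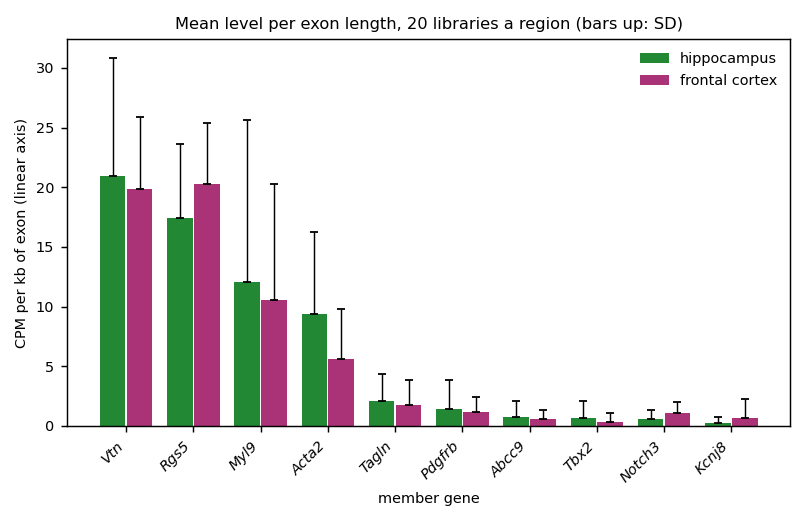
Mean level of each member per kilobase of exon (bars, linear axis from 0) with the SD upward, over 20 hippocampal (green) and 20 frontal cortical (purple) libraries. *Vtn* and *Rgs5* stand highest in both regions, at 17.5 to 20.9 CPM per kb, and 5 members lie below 2 CPM per kb in both regions.

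*Abcc9* encodes the regulatory subunit of the vascular potassium channel. In pre-KD hippocampus it ranged from 0 to 38.8 CPM with a median of 6.97 and a mean of 11.7 ± 13.6 (SD, n = 10), and 2 libraries had no read. Post-KD it ranged from 0 to 9.83 CPM with a median of 0 and a mean of 1.24 ± 3.05 (n = 10), and 6 libraries had no read. The ranges overlapped. The value was lower post-KD for 8 of 10 donors, while replicate 5 went from 0 reads to 12 and replicate 10 from 0 to 1. Summed over libraries, 194 reads stood against 16, an 11.2-fold difference after scaling for depth. The fitted log2 fold change was −3.20 (SE 1.17), and it was −5.16 without replicate 5, whose post-KD library held 75% of the post-KD reads.

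In frontal cortex, which the choice did not use, *Abcc9* ranged from 0 to 24.03 CPM pre-KD (median 1.46, mean 4.98 ± 8.19, n = 10) and from 0 to 14.5 CPM post-KD (median 2.52, mean 4.05 ± 4.74, n = 10). Both groups held 69 reads, and 5 donors were higher and 5 lower post-KD. Its fitted change was −0.29 on the log2 scale (SE 0.99, 95% interval −2.26 to 1.68, p = 0.772, adjusted p = 0.998, edgeR's quasi-likelihood test with Benjamini-Hochberg adjustment). With the stool donor as a block it was 1.07, p = 0.502, the opposite direction.

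**Figure D2:**
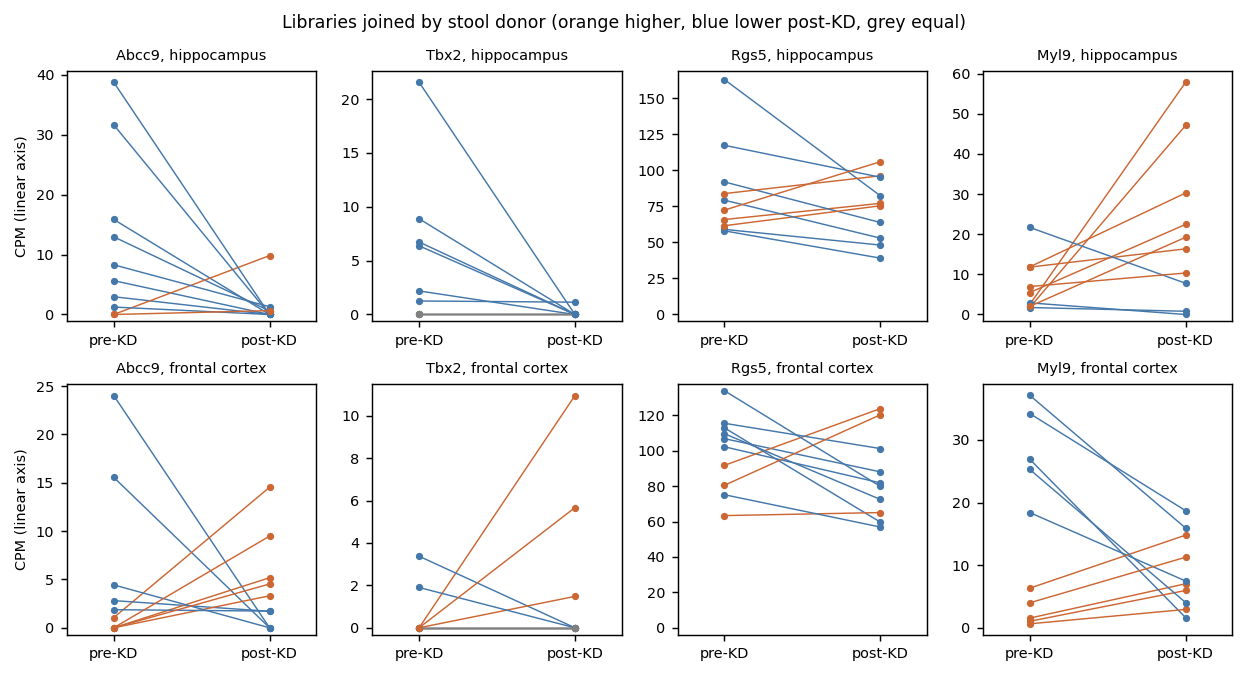
CPM of *Abcc9*, *Tbx2*, *Rgs5* and *Myl9* in each library (points), joined between the pre-KD and post-KD cohorts of the same stool donor, in hippocampus (top) and frontal cortex (bottom), on linear axes. In hippocampus the line goes down for 8 of 10 donors in *Abcc9* and 6 in *Tbx2* and up for 7 in *Myl9*, while *Rgs5* goes up for 4 and down for 6.

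*Kcnj8*, the pore subunit that pairs with SUR2, was rarely read. Hippocampal values ran from 0 to 2.89 CPM pre-KD (median 0, mean 0.520 ± 0.918, n = 10) and from 0 to 3.92 CPM post-KD (median 0, mean 0.755 ± 1.45, n = 10), with 9 and 12 reads in all. It reached the minimum of 10 reads for the fit only through the post-KD group, so the fitted log2 fold change of 0.47 (SE 1.39) is given with no p. Several-fold changes in either direction were not detectable at this depth. In frontal cortex 27 of the 33 post-KD reads and 10 of the 20 pre-KD reads came from the 2 libraries of replicate 8, and the log2 fold change was 0.28 (SE 1.32), p = 0.834.

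*Tbx2* encodes a T-box transcriptional repressor found in mural cells and other lineages. In pre-KD hippocampus it ranged from 0 to 21.6 CPM with a median of 1.72 and a mean of 4.70 ± 6.80 (SD, n = 10), and 6 of 10 libraries had reads. Post-KD 9 libraries had no read and replicate 4 had 2, or 1.15 CPM, which gave a mean of 0.114 ± 0.362 (n = 10). The sums were 72 and 2 reads, a ratio of 33.4 after scaling. The fitted log2 fold change was −4.55 (SE 1.54), with 6 donors lower, 0 higher and 4 at 0 in both, and −5.98 without replicate 4.

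In frontal cortex *Tbx2* was higher on average post-KD. Its values ran from 0 to 3.37 CPM pre-KD (9 reads, 8 libraries at 0) and from 0 to 10.9 CPM post-KD (34 reads, 7 libraries at 0). It reached the minimum of 10 reads for the fit only through the post-KD group, so the fitted log2 fold change of 1.64 (SE 1.38) is given with no p. Without replicate 2, which held 64.7% of the post-KD reads, it was 0.37, and without replicate 4 it was 2.87.

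Among *Rgs5*, *Vtn* and *Pdgfrb*, *Rgs5* gave the narrowest estimate. Its hippocampal values ran from 58.0 to 163 CPM pre-KD (median 75.8, mean 85.2 ± 32.8, n = 10) and from 39.1 to 106 CPM post-KD (median 76.2, mean 73.6 ± 22.3, n = 10). The ranges overlapped from 58.0 to 106 CPM, and 4 donors were higher and 6 lower. The log2 fold change was −0.21 (SE 0.25), or 0.864-fold with a 95% interval of 0.610 to 1.22, p = 0.407, adjusted p = 1.0 (edgeR).

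*Vtn* ran from 23.9 to 71.7 CPM pre-KD in hippocampus (median 34.0, mean 39.99 ± 16.7, n = 10) and from 23.3 to 107 CPM post-KD (median 38.8, mean 44.9 ± 23.8, n = 10). The fold was 1.12 with a 95% interval of 0.694 to 1.81 (log2 0.17, SE 0.35), p = 0.636. Post-KD replicate 8 stood alone at 107 CPM, above the next library at 52.9 CPM, and without both libraries of that donor the log2 fold change was −0.09. The same library was also highest for *Pdgfrb*, the PDGF-B receptor, at 54.3 CPM.

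*Pdgfrb* had 0 to 10.1 CPM in pre-KD hippocampus (median 4.01, mean 4.13 ± 3.93, n = 10) and 0 to 54.3 CPM post-KD (median 1.46, mean 11.7 ± 17.97, n = 10). Its mean was thus higher and its median lower post-KD, with 48.0% of the post-KD reads in replicate 8. *Pdgfrb* had a log2 fold change of 1.47 (SE 1.02, 95% interval −0.55 to 3.49), p = 0.152, adjusted p = 0.852 (edgeR), with 6 donors higher and 4 lower. It was 0.85 without replicate 8 (p = 0.488) and also 0.85 with the donor as a block (p = 0.559).

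*Notch3*, the mural cell Notch receptor, ran from 0 to 13.2 CPM in pre-KD hippocampus (median 3.51, mean 3.67 ± 4.20, n = 10) and from 0 to 20.6 CPM post-KD (median 2.96, mean 6.21 ± 7.51, n = 10). This gave a log2 fold change of 0.75 (SE 1.17), p = 0.522, with 4 donors higher, 4 lower and 2 at 0 in both. An antisense gene that shares 488 exonic bases with *Notch3* had 52 reads in the 40 libraries. Because the strand setting of the counting was not given, reads of the pair cannot be told apart.

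The contractile genes were each higher on average post-KD in hippocampus, and *Myl9* alone reached an unadjusted p under 0.05. *Myl9*, the regulatory light chain of smooth muscle myosin, ran from 1.74 to 21.7 CPM pre-KD (median 4.18, mean 6.87 ± 6.51, n = 10) and from 0 to 57.8 CPM post-KD (median 17.8, mean 21.2 ± 19.1, n = 10). The ranges overlapped, with 7 donors higher and 3 lower post-KD, and replicates 5 and 6 at 0 and 1 read. The log2 fold change was 1.63 (SE 0.75), 3.09-fold with a 95% interval of 1.11 to 8.58, p = 0.0312 unadjusted and 0.371 adjusted (edgeR). With the donor as a block, which the design provides, p was 0.222 (log2 1.203), and without replicates 2, 3 or 4 it was 0.118, 0.0518 and 0.154. Over all alternatives run the adjusted p ran from 0.141 to 1.0.

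*Acta2*, smooth muscle actin, ran from 0.578 to 43.1 CPM pre-KD (median 12.8, mean 18.1 ± 13.6, n = 10) and from 1.60 to 45.9 CPM post-KD (median 23.3, mean 23.2 ± 16.8, n = 10). Its log2 fold change was 0.36 (SE 0.58, 95% interval −0.79 to 1.51), p = 0.539. *Tagln*, the actin-binding protein transgelin, ran from 0 to 11.8 CPM pre-KD (mean 2.92 ± 3.58, n = 10) and from 0.573 to 12.5 CPM post-KD (mean 5.48 ± 4.86, n = 10), with a log2 fold change of 0.89 (SE 1.18), p = 0.453. For both, 6 donors were higher and 4 lower. *Tagln* shares 108 exonic bases with *Pcsk7* on the other strand and 1241 with an antisense gene, so its few reads are uncertain in origin.

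**Figure D3:**
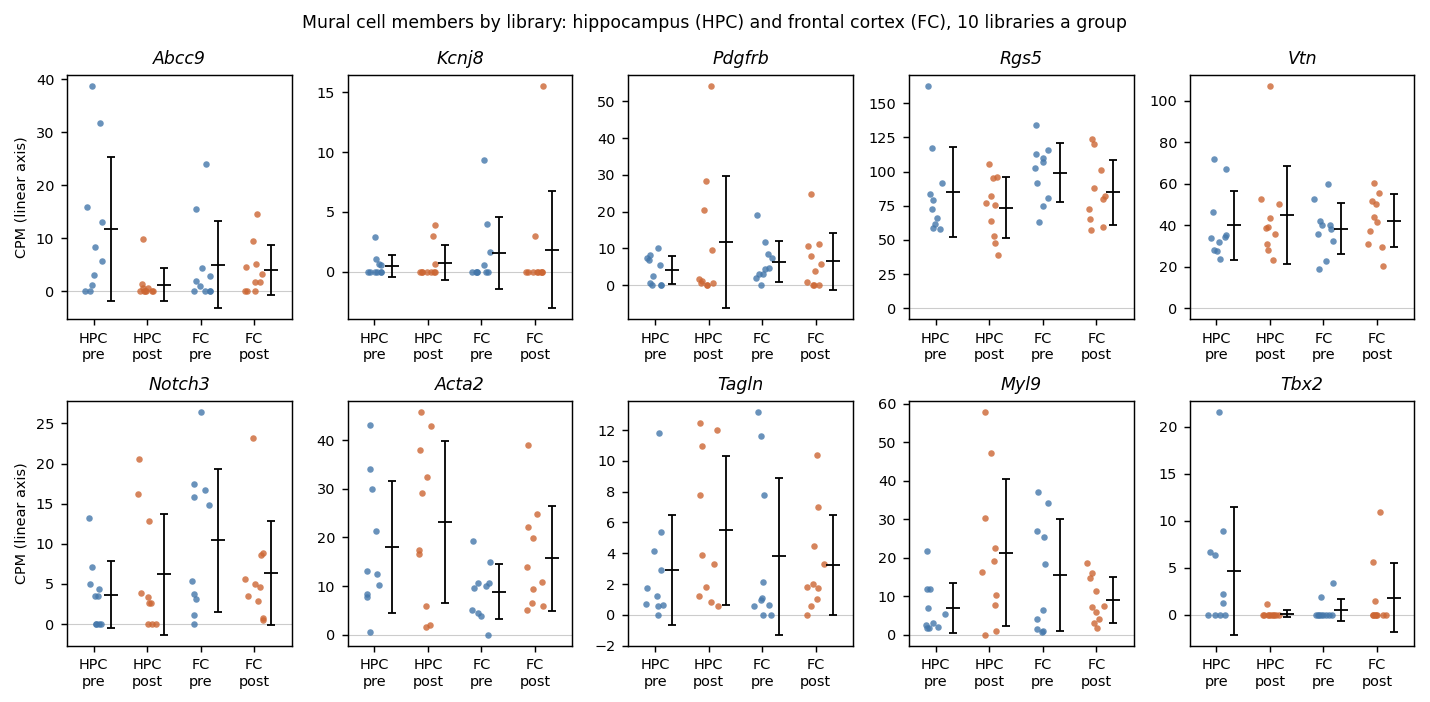
CPM of the 10 members in each of 40 libraries (points, linear axes that differ between panels) by region and condition, with the mean and SD beside each group of 10. The groups overlap in every panel, and *Rgs5* lies between 39.1 and 163 CPM in hippocampus.

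Counted together, 1 of the 8 genes chosen as mural cell genes had an unadjusted p under 0.05 in post-KD against pre-KD hippocampus. That gene, *Myl9*, was higher, and 0 of 8 were lower. Of all 17529 genes tested, 10.1% had such a p, 4.57% higher and 5.48% lower, so 1 of 8 is near the background. After adjustment 0 of 8 passed, against 0.0057% of all genes (edgeR, 1 gene; DESeq2 gave 0 of 8). In this fit 7 of 8 log2 fold changes were above 0, with a median of 0.61 beside −0.01 over all genes. The 8 include *Kcnj8*, which reached the minimum of 10 reads only through the post-KD group, so its place in these counts is a description. Apart from it, the lower ends of the 95% intervals ran from 0.338-fold for *Notch3* to 1.11-fold for *Myl9*. Without replicates 9 and 10, an alternative added after the data were seen, *Myl9* was again the only one of the 8 with such a p (log2 2.27, p = 0.00946), and the log2 fold changes were −3.35 for *Abcc9* and −3.41 for *Tbx2*.

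The summed level of the 8 genes, in CPM, overlapped between conditions in both regions. In hippocampus it ran from 109 to 242 CPM pre-KD (median 154) and from 124 to 323 CPM post-KD (median 178), and in frontal cortex from 112 to 226 (median 192) and from 123 to 247 (median 160). The 14 endothelial markers summed to 192 to 372 CPM in pre-KD hippocampus and 146 to 395 CPM post-KD. Of these 14 markers 0 had an unadjusted p under 0.05 there, beside 10.1% of all genes. In a bulk library fewer cells of a type and less RNA per cell cannot be told apart, so these values describe tissue RNA.

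**Figure D4:**
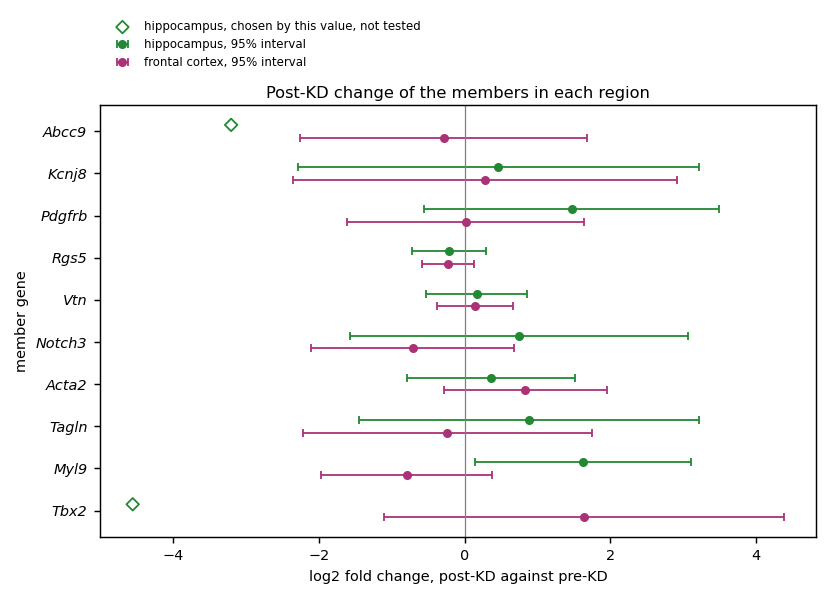
Log2 fold change of each member, post-KD against pre-KD, in hippocampus (green) and frontal cortex (purple) with 95% intervals from edgeR. Open diamonds are the hippocampal values that chose *Abcc9* and *Tbx2*. The intervals of *Kcnj8* in hippocampus and *Tbx2* in frontal cortex are descriptions, since each reached the fit only through the post-KD group. Of the other intervals, all but that of *Myl9* in hippocampus include 0.

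In frontal cortex 0 of 10 members had an unadjusted p under 0.05 (edgeR; 0 by DESeq2), where 9.68% of 17873 genes did, 5.01% higher and 4.68% lower post-KD. After adjustment the background was 0.0056%, or 1 gene, and again no member. The 10 include *Tbx2*, which reached the fit only through the post-KD group, so its place in these counts is a description. The smallest unadjusted p belonged to *Acta2*, which ran from 0 to 19.3 CPM pre-KD (mean 8.83 ± 5.68, n = 10) and from 5.10 to 39.1 CPM post-KD (mean 15.8 ± 10.8, n = 10), with a log2 fold change of 0.83 (SE 0.56), p = 0.141. *Myl9* went from a mean of 15.5 ± 14.5 to 8.97 ± 5.89 CPM (n = 10 each), with 5 donors higher and 5 lower and a log2 fold change of −0.80 (SE 0.59), p = 0.183. *Rgs5* was estimated most closely, at 0.855-fold with a 95% interval of 0.670 to 1.09 (p = 0.205), with 3 donors higher and 7 lower. *Vtn* was at 1.101-fold (0.767 to 1.58, p = 0.597), *Notch3* at a log2 fold change of −0.71 (SE 0.70, p = 0.312), *Tagln* at −0.24 (SE 0.99, p = 0.812) and *Pdgfrb* at 0.02 (SE 0.82, p = 0.981).

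Whether the post-KD change differed between the regions was asked over 40 libraries with a term for each cohort. Of the 8 genes not chosen by their hippocampal change, 0 had an unadjusted p under 0.05 (edgeR; 0 by DESeq2), against 2.22% of 19422 genes. *Myl9*, whose estimates had opposite signs in the regions, had a log2 difference of 1.79 (SE 1.23, hippocampus minus frontal cortex, 95% interval −0.61 to 4.19), p = 0.143, adjusted p = 1.0 (edgeR). Without the cohort term p was 0.0121. The *Rgs5* difference was 0.07 (95% interval −0.59 to 0.74) and the *Vtn* difference 0.00 (−0.98 to 0.98). For *Abcc9* and *Tbx2* this difference contains the contrast that chose them, and the values were −4.23 (SE 1.97) and −5.09 (SE 2.71), given with no test.

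The level of each member was also compared between the regions. With a term for each cohort, 0 of 10 members passed an adjusted p of 0.05 for hippocampus against frontal cortex, against 2.85% of 19422 genes, and the smallest unadjusted p was that of *Notch3*. *Notch3* averaged 4.94 ± 6.07 CPM in hippocampus and 8.41 ± 7.88 CPM in frontal cortex (n = 20 each), a log2 fold change of −1.40 (SE 0.87), p = 0.106, adjusted p = 0.623 (edgeR), beside a median of −0.17 over all genes in this fit. Without the cohort term the log2 fold change was −0.76, and over the alternatives the adjusted p for *Notch3* ran from 0.153 to 0.798. *Rgs5* averaged 79.4 ± 27.9 and 92.1 ± 23.1 CPM (0.843-fold, 95% interval 0.671 to 1.059), *Vtn* 42.5 ± 20.1 and 40.3 ± 12.3 CPM, and *Acta2* 20.6 ± 15.1 and 12.3 ± 9.12 CPM (1.58-fold, 0.801 to 3.11). *Abcc9* averaged 6.49 ± 10.98 and 4.51 ± 6.53 CPM, and only its pre-KD hippocampal group had a mean above 5 CPM. Its fitted log2 fold change was −0.31 (SE 0.96), p = 0.7465 (edgeR), opposite in direction to these means. For comparison, 7 of 10 choroid plexus genes were higher in hippocampus at an adjusted p under 0.05, with summed levels of 742 to 5700 CPM there and 132 to 900 CPM in frontal cortex, as were *Dcn* and *Igf2* of 10 fibroblast and meningeal genes.

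Further mural genes were read from lists outside the 10. Of 19 other pericyte genes 16 were tested in hippocampus, where 1 was higher and 0 lower at an unadjusted p under 0.05, beside 10.1% of all genes, and the median log2 fold change was 0.35. The one was *Slc6a20a*, an amino acid transporter of pericytes and other vascular and meningeal cells, which went from 9.999 ± 12.6 to 26.1 ± 18.5 CPM (n = 10 each) with 8 of 10 donors higher (log2 1.38, SE 0.65, p = 0.0372, adjusted p = 0.415, edgeR). Leaving out replicate 4, 7, 8 or 9 alone gave it a p of 0.054 to 0.112, and replicates 1 to 8 gave 0.0634. In frontal cortex 17 were tested and 2 were higher, *Slc38a11* and *Higd1b*, beside 9.68% of all genes in either direction, so the counts of this list are near the background. *Slc38a11*, a putative amino acid transporter, had 1 read pre-KD and 38 post-KD, 7 post-KD libraries being at 0. It entered the fit through the post-KD reads alone, so its place in the count is a description with no p. *Higd1b*, a mitochondrial protein enriched in pericytes, had 12 and 85 reads (log2 2.71, SE 1.202, p = 0.0270, adjusted p = 0.366, edgeR). With the donor as a block the log2 fold change of *Higd1b* was 2.77 and its p 0.136 (0.0621 without replicate 4, 0.156 without replicate 7 and 0.0675 in replicates 1 to 8).

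Of 18 other smooth muscle genes, all tested in hippocampus, 1 was higher and 0 lower at that threshold, beside 10.1% of all genes, and the median was −0.21. *Myocd*, the cofactor of serum response factor that drives the smooth muscle programme, had 0 reads pre-KD and 21 post-KD, of which replicate 7 held 19 and replicates 4 and 10 held 1 each. It entered the fit through the post-KD reads alone, so its place in the count is a description and it too is given with no p. Without replicate 7 *Myocd* had too few reads to be fitted. In frontal cortex 17 were tested and 1 was lower, beside 9.68% of all genes. There 9 log2 fold changes of this list were above 0 and 8 below, with a median of 0.04. *Mylk*, the kinase that phosphorylates the light chain made from *Myl9* and is also transcribed outside muscle, went from 45.6 ± 13 to 25.8 ± 14.4 CPM with 9 of 10 donors lower (log2 −0.82, SE 0.30, p = 0.00735, adjusted p = 0.141, edgeR), and its p was 0.00238 with the donor as a block. Of these 5 genes 0 passed after adjustment over all genes.

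Of 17 signalling and channel partners 16 were tested in each region, and 0 had an unadjusted p under 0.05 in either (edgeR). The share over all genes was 10.1% in hippocampus and 9.68% in frontal cortex. Some of them are named here for their roles, after their values were seen. *Kcnj11*, which encodes Kir6.2, the other pore subunit of this channel family, had no read in any of the 40 libraries. Whether the gene was silent or its reads were not counted was not tested. *Abcc8*, which encodes the neuronal and endocrine receptor SUR1, had 286 reads pre-KD and 214 post-KD in hippocampus (log2 −0.29, SE 0.67, p = 0.659). The ligand of the pericyte receptor, *Pdgfb*, had 125 and 69 reads (log2 −0.74, SE 1.04, p = 0.479), and the Notch ligand *Jag1* had 55 and 192 (log2 1.99, SE 1.05, p = 0.0593, adjusted p = 0.548, edgeR). For *Jag1* the log2 fold change was 3.50 with the donor as a block (p = 0.0346) and 3.41 without replicate 6 (p = 0.00771), and 1.52 in replicates 1 to 8 (p = 0.203), with p = 0.151 without replicate 7 and 0.140 without replicate 9.

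Markers of other cells were counted beside these results. In hippocampus 0 of 14 endothelial, 0 of 10 fibroblast and meningeal, 0 of 10 choroid plexus and 0 of 4 tested blood genes had an unadjusted p under 0.05 for post-KD against pre-KD, where 10.1% of all genes did. Among 5 hippocampal markers *Prox1*, a transcription factor of dentate granule cells, was lower (97.1 ± 26.4 to 65.3 ± 23.0 CPM, p = 0.0256, adjusted p = 0.324, edgeR), with a p of 0.0533 without replicate 1 and 0.0679 without replicate 7. *Tdo2*, another of the 5, had 8 reads pre-KD and 79 post-KD, and since it entered the fit only through the post-KD reads no p is given. In frontal cortex, where 9.68% of all genes had such a p, 2 of 4 tested blood genes were higher, *Hba-a1* (326 ± 112 to 456 ± 145 CPM, p = 0.00163) and *Hbb-bs* (327 ± 130 to 434 ± 113 CPM, p = 0.00691), with adjusted p of 0.122 and 0.136 (edgeR). The other 2 tested blood genes had log2 fold changes below 0 there. For *Hbb-bs* the p was 0.0571 by DESeq2 and 0.052 without replicate 4. Their part in the mural values was not tested.

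Relations between members over libraries were computed pair by pair. Of 100 relations computed on log2 CPM centred within region and condition (45 pairs in each region over 20 libraries, and each member between the 2 regions over 20 cohorts), 52 were positive, 9 had a permutation p under 0.05 for Pearson's r and 0 passed Benjamini-Hochberg adjustment. The strongest was *Pdgfrb* with *Vtn* in hippocampus (Pearson's r = 0.586, p = 0.00754, adjusted p = 0.469, Spearman's rho = 0.436, p = 0.0654, adjusted p = 0.538, two-sided permutation tests), where leaving out the 2 libraries farthest in *Pdgfrb* gave r = 0.393. The r was 0.736 within pre-KD and 0.509 within post-KD libraries, and in frontal cortex the pair had r = 0.0168 (rho = 0.0648). *Notch3* with *Tagln* followed (r = 0.557, p = 0.0149, rho = 0.545, p = 0.0188, adjusted p = 0.469 and 0.538, r = 0.397 without the 2 farthest), and *Notch3* with *Acta2* was negative (r = −0.532, p = 0.0209, rho = −0.543, p = 0.0171, adjusted p = 0.469 and 0.538, r = −0.475 without the 2 farthest). In frontal cortex these pairs had r = 0.114 and 0.00641. The channel partners *Abcc9* and *Kcnj8* had a Pearson's r of 0.239 in hippocampus (p = 0.283, adjusted p = 0.770, rho = 0.183, p = 0.321, adjusted p = 0.853, and r = 0.151 without the 2 farthest), with *Kcnj8* at 0 in 13 of 20 libraries. Their r was 0.541 within pre-KD and −0.105 within post-KD hippocampus, and −0.297 in frontal cortex (p = 0.215, adjusted p = 0.715, rho = −0.364, p = 0.0968, adjusted p = 0.538).

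Likeness to the mean of *Pdgfrb*, *Rgs5*, *Vtn*, *Notch3* and *Kcnj8* was also ranked, as a description with no test, over genes averaging at least 10 counts a library. In hippocampus *Irf3*, *Rbm39*, *Pbx3*, *Npm3* and *Tmem138* led 10354 genes, with r from 0.724 to 0.734 over 20 libraries that share region and processing. In frontal cortex *Tub*, *Gabrg1*, *Dpf1*, *Gm43259* and *Snrpb* led 10549 genes (r from 0.678 to 0.716). For the mean of *Acta2*, *Tagln* and *Myl9*, *Slc22a6* (r = 0.774), *March9*, *C130089K02Rik*, *Trmt6* and *Prdx1* (down to r = 0.738) led in hippocampus, and *Abt1*, *2610002M06Rik*, *Kif3a*, *Ammecr1* and *Lysmd2* (r from 0.623 to 0.630) in frontal cortex. Of these 20 genes 1, *Slc22a6* of the fibroblast and meningeal list, was in a list of vascular or neighbouring cells.

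The spread between libraries bounds all of these comparisons. If reads were drawn independently, the variance of a gene's counts over libraries would be near its mean. Within a condition the variance over the mean was 15.3 for *Rgs5*, 17.9 for *Vtn*, 17.3 for *Abcc9*, 21 for *Myl9* and 24.6 for *Pdgfrb* in hippocampus. Over 4281 hippocampal genes averaging 5 to 20 counts the median was 13.8, with an interquartile range of 10.7 to 17.8. Of the 10 members 5 lay within the interquartile range of the genes of like count in hippocampus, 2 above and 3 below, and in frontal cortex 4 lay within, 5 above and 1 below. The median gene averaging 5 to 20 counts had 5 of 20 hippocampal libraries at 0.

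**Figure D5:**
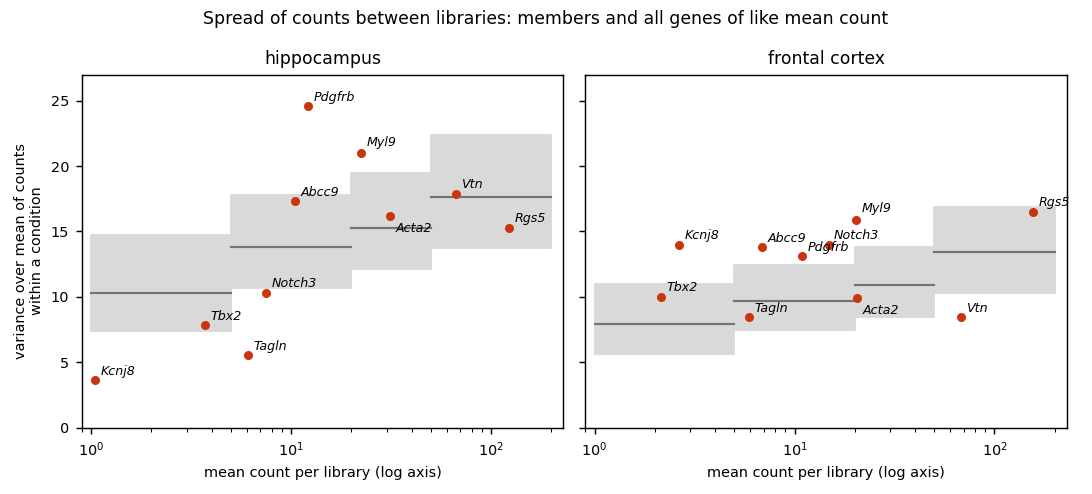
Variance over mean of counts within a condition against the mean count per library (log axis) for the 10 members (red points), beside all genes of like mean count (grey band for the interquartile range, grey line for the median), in hippocampus (left) and frontal cortex (right). A value of 1 would be independent draws of reads, and the members lie between 3.62 and 24.6.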

How the data were processed

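RNA-seq was read in 40 mouse libraries, 20 cohorts by hippocampus and frontal cortex. According to the methods, RNA was prepared with a TruSeq kit, sequenced in read pairs of 69 bases, aligned to mm10 with STAR 2.5.2a and counted with HTSeq 0.6.0, and the authors deposited unnormalized read counts of 47643 genes for each region. The annotation release and strand setting are not given in the sources used here. Positions came from GENCODE M21 (47224 identifiers matched).

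A gene entered a fit if it had at least 10 counts in all. The quasi-likelihood test of edgeR 4.0.16 was run in R 4.3.3 with TMM factors, for post-KD against pre-KD in each region, and over 40 libraries with a term for each cohort for the region and its interaction with condition. P values were Benjamini-Hochberg adjusted over all genes of a fit, and 0.05 was applied to adjusted p and, as in the study, to unadjusted p. The p values measure the spread between pooled cohorts. Log2 CPM used a prior count of 2, and relations were tested with 100000 permutations within condition (scipy 1.17.1). Plots were drawn with matplotlib 3.10.9. The fits were tested on simulated data.

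The members, lists and tests were chosen with earlier results of these data known. The genes named were the 10 members, the list genes with an unadjusted p under 0.05 for diet (at most 4 a list and region), and the 5 genes per region most like the pericyte and the contractile mean. *Kcnj11*, *Abcc8*, *Pdgfb*, *Jag1*, *Dcn* and *Igf2* fall outside that rule and were named after their values were seen. Depth was 1140756 to 2095352 counts a library. Alternatives were DESeq2 1.42.0, no filter, filterByExpr, RLE size factors, the Y-linked or endothelial level as a covariate, levels without TMM, leaving out each donor, replicates 1 to 8 alone (added after the data were seen), and the stool donor as a replicate block. The donor numbers pair the libraries by design. After removing condition means, libraries of a donor correlated across genes at r = −0.0279 to 0.0299 in hippocampus and −0.0564 to 0.0317 in frontal cortex, 0 of 20 pairs being above 0.1. No pair of libraries was identical.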

Additional observations from a re-analysis of the deposited data

Results flagged for a closer look

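In 13 of 40 groups of 10 libraries (10 members in 2 regions and 2 conditions) the highest library stood apart from the rest by Dixon's gap test, which chance alone would give in about 1 of 20 groups of normally distributed values. The groups are named here by member, and in each the highest and the next library are given in CPM. In 0 groups did the lowest library stand apart. Counts are bounded by 0 and were mostly sparse in the flagged groups, but *Vtn* in post-KD hippocampus had 28 to 164 counts.

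In post-KD hippocampus *Abcc9* had 9.83 CPM in replicate 5 (next 1.29), *Pdgfrb* 54.3 CPM in replicate 8 (next 28.5), *Vtn* 107 CPM in replicate 8 (next 52.9) and *Tbx2* 1.15 CPM in replicate 4, the only library with reads. In pre-KD hippocampus *Kcnj8* had 2.89 CPM in replicate 6 (next 1.09), *Tagln* 11.8 CPM in replicate 10 (next 5.39), *Myl9* 21.7 CPM in replicate 9 (next 11.9) and *Tbx2* 21.6 CPM in replicate 10 (next 8.89).

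In frontal cortex *Kcnj8* had 9.37 CPM in pre-KD replicate 8 (next 3.99) and 15.6 CPM in post-KD replicate 8 (next 2.99). Post-KD replicate 3 had 24.8 CPM of *Pdgfrb* (next 11.1) and 23.2 CPM of *Notch3* (next 8.89), and post-KD replicate 2 had 10.9 CPM of *Tbx2* (next 5.67). Replicate 8 thus held the highest value of 4 of these 13 groups and replicates 3 and 10 of 2 each.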

How the results depend on the processing

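Of the 8 genes chosen as mural cell genes, 1 was called in hippocampus, 0 with the donor as a replicate block and 0 to 1 when a donor was left out (0 without replicates 2, 3 or 4). In frontal cortex and for the region level 0 members were called under every alternative run, and for the difference between regions 1 (*Myl9*) was called without the replicate block of cohorts. Over all genes the hippocampal count of 1762 unadjusted calls became 2931 with no filter, 221 with filterByExpr, 348 with the replicate block and 599 by DESeq2, and the adjusted count of 1 became 1291, 0, 0 and 0 (0 to 1 leaving out a donor). The frontal cortical count of 1731 became 3035, 407, 548 and 825, and its adjusted count of 1 became 3 with the block and 2 by DESeq2. Adjusted calls between regions numbered 554, 1033 by DESeq2 and 1935 without the cohort block, and unadjusted calls for the difference between regions 431, 949 and 1767. FilterByExpr tests fewer genes, and of the members only *Rgs5*, *Vtn*, *Acta2* and *Myl9* gave a value with it in the diet fits. The cause of the other shifts was not tested.

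The sign turned in the following cases, each with a p above the threshold both ways. With the block the frontal cortical log2 fold change was 1.07 for *Abcc9*, −0.88 for *Kcnj8*, −0.57 for *Pdgfrb* and 0.33 for *Tagln*. It was −2.33 for *Kcnj8* by DESeq2 and −0.035 for *Pdgfrb* with the endothelial covariate. Hippocampus against frontal cortex gave 0.10 for *Kcnj8* by DESeq2 and 0.12 for *Pdgfrb* without the block, and the *Vtn* difference between regions was 0.0057 by DESeq2, 0.0011 with RLE factors and 0.034 without the block. Leaving out a donor turned the sign within these ranges. In hippocampus they were −0.28 to 1.44 (*Kcnj8*), −0.087 to 0.34 (*Vtn*) and −0.63 to 0.026 (*Abcc8*). In frontal cortex they were −0.90 to 0.65 (*Abcc9*), −0.89 to 0.70 (*Kcnj8*), −0.56 to 0.44 (*Pdgfrb*), −0.75 to 0.26 (*Tagln*) and −0.39 to 0.996 (*Jag1*). Between regions they were −0.68 to 0.26 (*Kcnj8*), −0.081 to 0.12 (*Vtn*), −0.044 to 0.76 (*Tagln*) and −0.27 to 0.40 (*Myl9*), and for the difference −0.51 to 1.40 (*Kcnj8*), −0.074 to 0.18 (*Rgs5*) and −0.13 to 0.18 (*Vtn*). The other log2 fold changes kept their sign, and all 40 mean levels moved by less than 1 SD without TMM. The block ended the calls of *Myl9* (log2 1.203) and *Higd1b* (2.77), whose log2 fold changes with it stayed above 0, brought *Jag1* under the threshold and changed no other call among the genes given with a p. For the list genes that entered a fit through post-KD reads alone, the log2 fold change with and without the block was 1.67 and 4.07 (*Myocd*), 2.41 and 4.05 (*Slc38a11*) and 2.91 and 3.19 (*Tdo2*). Depth limits *Kcnj8*, with 21 reads in 20 hippocampal libraries and 53 in frontal cortex, and *Tbx2*, with 43 in frontal cortex.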
